A study of Homo sapiens with 10 samples.

Results

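Antibody-only ZMYND8 peaks far from gene starts are the narrow sites that chromatin immunoprecipitation with an antibody to ZMYND8 gave in HEK293 cells, where the list for FLAG-tagged ZMYND8 has none. They were selected on 3 measured values, namely a width under 1000 bp, no overlap of 1 bp or more with a FLAG-ZMYND8 peak, and a midpoint more than 3 kb from the 5′ end (TSS) of every GENCODE gene on hg19, for chromosomes 1 to 22. The ZMYND8 list held 15086 peaks, of which 14577 were on these chromosomes, 13739 were also under 1000 bp and 8542 of those had no FLAG-ZMYND8 partner. Of these, 4953 passed the distance from gene starts, which was 32.8% of the ZMYND8 list, and they covered 863 kb. Both lists together held 78776 peaks.

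The series has 10 samples of HEK293, an established human embryonic kidney line. Each of the ZMYND8, FLAG-ZMYND8, H3K14ac and H3K27ac ChIPs has 2 replicates, and there are 2 inputs, of which only the 2 ZMYND8 peak lists were analysed here. Chromatin was crosslinked and digested with micrococcal nuclease, so the sequenced fragments come mostly from nucleosomes. For the FLAG-ZMYND8 ChIP, 3xFLAG-tagged ZMYND8 was induced with 10 nM doxycycline in Flp-In T-REx HEK293 cells, in which the transgene sits at a single integration site, and anti-FLAG was used. For the ZMYND8 ChIP, an antibody from Bethyl recognised the protein itself. The labels describe those cells as carrying either the tagged protein or its N228F mutant, without saying which, so endogenous and tagged protein cannot be told apart in this list. Each target has 1 deposited list, with no replicate column and no read count. The depth is therefore unknown, no spread between replicates can be given and no test between conditions was possible. Shares are given with 95% Wilson intervals and differences of shares with 95% Newcombe intervals, which cover counting error over peaks only, and peaks are not replicates.

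ZMYND8 is a chromatin reader that combines a PHD finger, a bromodomain and a PWWP domain, which together contact the histone H3 tail, acetylated lysine and DNA. It associates with the NuRD complex and is known both from active promoters and enhancers and from sites of DNA damage. CpG is the dinucleotide that is methylated in human DNA. It is rare over most of the genome and clustered in CpG islands, which mark many promoters.

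The sequences of 7 sites of the minimum width of 151 bp show what kinds of DNA the set holds. All are from the GRCh37 reference (hg19), plus strand, 5′ to 3′, with each CpG in capitals. The first 4 are the sites with most CpG among the intergenic, intronic, noncoding exon and coding exon sites, and they show the CpG-dense end of the set.
Intergenic, upstream of CASZ1, chr1:10927175-10927325: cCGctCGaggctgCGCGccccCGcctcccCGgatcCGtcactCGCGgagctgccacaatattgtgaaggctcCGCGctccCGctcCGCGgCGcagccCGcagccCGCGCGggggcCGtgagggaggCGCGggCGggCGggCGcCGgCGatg
Intron of LIMS2, chr2:128432401-128432551: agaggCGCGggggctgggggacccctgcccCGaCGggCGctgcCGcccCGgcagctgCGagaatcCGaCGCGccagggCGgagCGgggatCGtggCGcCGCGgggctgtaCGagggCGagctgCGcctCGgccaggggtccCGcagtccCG
Noncoding exon of LINC01588, chr14:50470104-50470254: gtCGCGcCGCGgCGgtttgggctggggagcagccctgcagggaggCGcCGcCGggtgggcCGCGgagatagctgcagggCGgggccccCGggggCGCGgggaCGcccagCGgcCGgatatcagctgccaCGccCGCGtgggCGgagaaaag
Coding exon of NR2F6, chr19:17346554-17346704: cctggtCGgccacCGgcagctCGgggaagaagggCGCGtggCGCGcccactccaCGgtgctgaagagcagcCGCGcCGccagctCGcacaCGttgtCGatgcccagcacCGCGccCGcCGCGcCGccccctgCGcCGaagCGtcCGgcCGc
These sites held 27, 23, 21 and 25 CpG. CASZ1 encodes a zinc finger transcription factor, and the first site was at -70543 bp from its TSS. LIMS2 encodes a focal adhesion protein with LIM domains, LINC01588 is a long noncoding RNA, and NR2F6 encodes an orphan nuclear receptor.

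The last sequences are 3 sites in introns of GMDS, the gene with most members, chosen after the values were seen because their GC content was nearest to the median. They show sites with few CpG.
Intron of GMDS, first, chr6:1664504-1664654: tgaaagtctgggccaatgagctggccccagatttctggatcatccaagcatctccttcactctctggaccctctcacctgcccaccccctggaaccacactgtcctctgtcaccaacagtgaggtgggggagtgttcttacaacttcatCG
Intron of GMDS, middle, chr6:1687580-1687730: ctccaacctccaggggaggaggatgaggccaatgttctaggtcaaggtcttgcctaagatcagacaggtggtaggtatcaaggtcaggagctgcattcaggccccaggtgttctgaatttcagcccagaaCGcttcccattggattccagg
Intron of GMDS, last, chr6:2037624-2037774: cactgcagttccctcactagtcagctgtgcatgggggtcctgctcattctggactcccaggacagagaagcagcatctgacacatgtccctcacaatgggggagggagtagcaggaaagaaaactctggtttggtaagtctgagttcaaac
They held 1, 1 and 0 CpG, fewer than the lower quartile of the set, which was 2, at a GC content of 54.97%, 53.6% and 52.3%. In each, the median stretch of 31 bp had 1 exact copy in the genome.

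Most of the antibody-only far peaks lay in introns or between genes. Introns held 2877 of the 4953 midpoints, or 58.1% (56.7 to 59.5%), and intergenic DNA held 1461, or 29.5% (28.2 to 30.8%). Coding exons held 215 (4.34%), UTRs of protein-coding transcripts 190 (3.84%), exons of noncoding transcripts 146 (2.95%) and the first 1 kb after a gene end 64 (1.29%). Of the UTR sites, 118 were in 3′ UTRs and 72 in 5′ UTRs of transcripts whose gene start lay more than 3 kb away.

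The intronic share was that of the genome, and exons were held more often. Of 15774473 windows of 151 bp more than 3 kb from a TSS, 58.2% were intronic, and the difference of -0.146 percentage points had an interval of -1.53 to 1.22 points. Exons of any kind held 11.1% of the peaks against 4.17% of the windows, a difference of 6.96 points (6.11 to 7.86). For coding exons alone the shares were 4.34% and 1.10%, and the difference was 3.24 points (2.71 to 3.85). Intergenic DNA was held less often than by the windows, with a difference of -7.48 points (-8.74 to -6.20). These shares were not compared at matched GC content. The median GC content was 56.3% for the peaks, 62.3% for those in coding exons and 39.7% for the windows. What part base composition has in the exon difference was not tested.

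A total of 3 sets of peaks selected with the same width limit served for comparison. The 1624 shared far peaks are ZMYND8 peaks that overlap a FLAG-ZMYND8 peak more than 3 kb from a TSS, the 35310 FLAG-only far peaks are their counterpart in the other list, and the 3589 antibody-only peaks near gene starts lie within 3 kb of a TSS. The antibody-only far peaks were the most often intergenic of the far sets. The shares were 29.5% against 23.4% of the shared far peaks, a difference of 6.10 points (3.64 to 8.47), and against 22.4% of the FLAG-only far peaks, a difference of 7.08 points (5.76 to 8.44). Exons of any kind held 18.4% of the shared far peaks and 10.3% of the FLAG-only far peaks. The antibody-only far peaks thus had a lower exonic share than the shared ones, by a difference of -7.23 points (-9.36 to -5.20), while the interval of the difference from the FLAG-only set included 0 (0.796 points, -0.109 to 1.75). Among the exon classes, the difference from the shared set was widest for UTRs, with 3.84% against 8.50%. Gene ends held small shares in all 3 far sets, and their differences from the antibody-only far peaks had intervals that included 0.

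**Figure D1:**
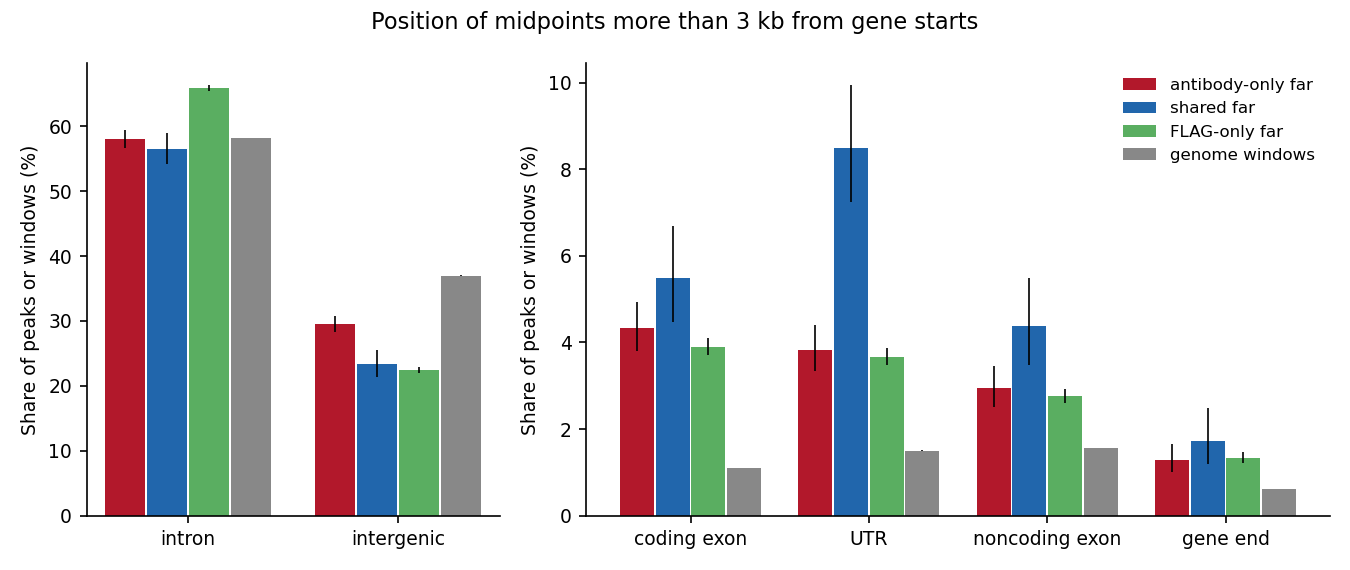
Share of midpoints in each position class (y axis, percent; the panels have different scales) for antibody-only, shared and FLAG-only peaks and for 151 bp genome windows, all more than 3 kb from a gene start. Error bars are 95% Wilson intervals, and the antibody-only bar for intergenic DNA, at 29.5%, lies between the other peak sets and the genome at 37.0%.

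Many sites that are far from the 5′ end of a gene are near the 5′ end of some transcript. A start of any annotated transcript lay within 3 kb of 1017 antibody-only far peaks, or 20.5% (19.4 to 21.7%), against 36.0% of the shared far peaks and 22.2% of the FLAG-only far peaks. The gene whose TSS was nearest was protein-coding for 1770 peaks (35.7%), a lncRNA for 1675 (33.8%) and a processed pseudogene for 611 (12.3%). The median distance to any TSS was 15106 bp, with quartiles of 7241 and 32196 bp, and the median to the TSS of a protein-coding gene was 36627 bp.

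The distance limit cut through a continuous range. Just inside, at 3002, 3005 and 3008 bp, were sites whose nearest starts were those of a gene with no symbol, of NCR2 and of COL9A3. The first was in a coding exon of FOXA1, which encodes a forkhead pioneer factor, and the third in a coding exon of COL9A3. Just outside, at 3000, 2998 and 2992 bp, were sites whose nearest starts were those of the microRNA gene MIR3680-2, of HOXC13 and of another gene with no symbol. For the width limit, the widest members had 953, 950 and 943 bp, and the narrowest peaks that it left out, among those that met the rest of the rule, had 1032, 1047 and 1047 bp.

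The antibody-only far peaks were richer in GC than the genome. Their median GC content was 56.3%, with quartiles of 52.6% and 60.9%, against 39.7% for the genome windows. Of the peaks, 4362 or 88.1% (87.1 to 88.9%) had a GC content of 50% or more, a level that 17.7% of the windows reached. At the other end, 12 peaks had a GC content under 40%, a range that held 52.1% of the windows.

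The GC content was close to that of the FLAG-only far peaks and below that of the other ZMYND8 sets. The medians were 60.3% (59.7 to 60.8%) for the shared far peaks, 64.2% (63.7 to 64.9%) for the antibody-only peaks near gene starts and 56.3% for the FLAG-only far peaks. The high GC content was local. It averaged 57.6% in the central 100 bp and 47.8% at 800 to 1000 bp on either side, a difference of 9.78 points, against 13.2 points for the shared far peaks and 10.01 points for the FLAG-only far peaks. At 200 to 400 bp from the midpoint the antibody-only far peaks averaged 49.7% GC and 2.02 CpG per 100 bp, above the 47.7% and 1.73 of the FLAG-only far peaks and below the 53.8% and 3.53 of the shared far peaks. The rise of the antibody-only far peaks thus had wider shoulders than that of the FLAG-only far peaks, at nearly the same height in the centre.

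**Figure D2:**
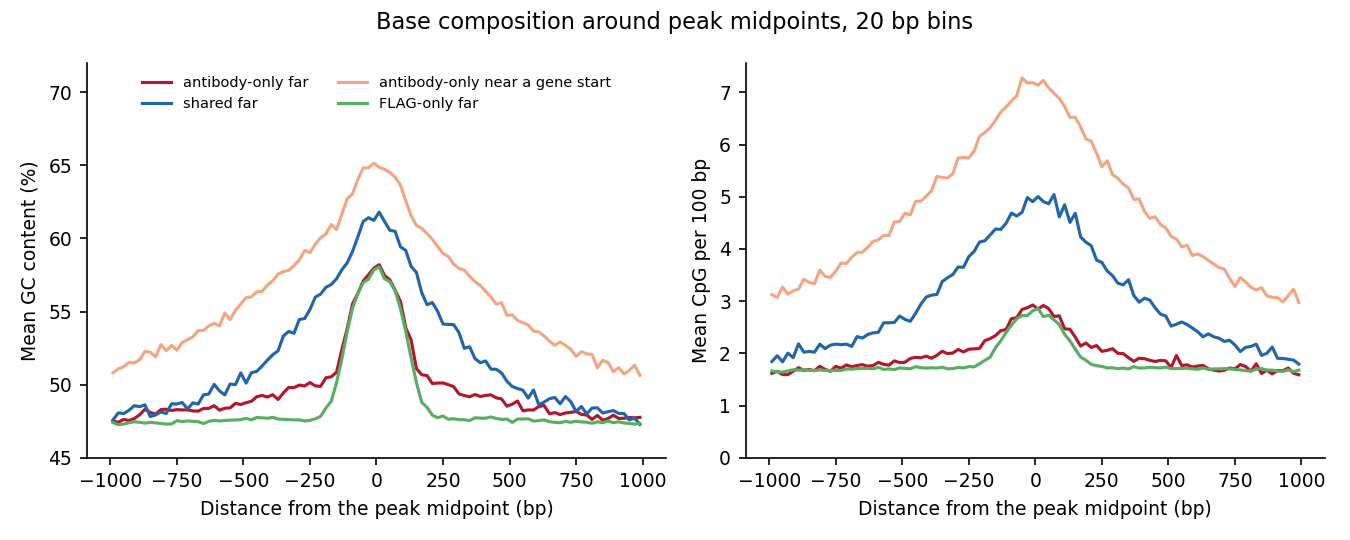
Mean GC content (left, percent) and mean CpG per 100 bp (right) in 20 bp bins from 1000 bp before to 1000 bp after the peak midpoint, for 4 sets of peaks. The antibody-only far peaks rise from 47.8% at the edges to 57.6% GC at the centre, with a centre as high as that of the FLAG-only far peaks but wider shoulders (49.7% against 47.7% at 200 to 400 bp), and below the other ZMYND8 sets. The left axis does not start at 0.

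CpG separated the antibody-only far peaks from the other ZMYND8 sets more than GC did. In the 151 bp around the midpoint the antibody-only far peaks held a median of 3 CpG, as did the FLAG-only far peaks. The shared far peaks held 5 and the antibody-only peaks near gene starts 10, against 1 in the genome windows. At least 5 CpG were held by 32.0% of the antibody-only far peaks, 55.2% of the shared far peaks, 74.2% of the antibody-only peaks near gene starts and 36.4% of the FLAG-only far peaks. The difference from the shared far peaks was -23.3 points (-26.0 to -20.5). For a GC content of 50% or more it was -5.77 points (-7.19 to -4.23). From the FLAG-only far peaks these differences were -4.48 points for CpG and -3.39 points for GC. No CpG was held by 414 antibody-only far peaks, or 8.36% (7.62 to 9.16%).

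A difference in CpG content remained at matched GC content. Among stretches with 55 to 60% GC, the mean CpG count was 3.40 in the 1425 antibody-only far peaks of that range, 4.42 in the shared far peaks, 5.11 in the antibody-only peaks near gene starts, 4.12 in the FLAG-only far peaks and 3.52 in the genome windows. At this GC content the antibody-only far peaks held the fewest CpG of the 4 sets of peaks and the number closest to that of the windows. The contrast with the FLAG-only far peaks was not seen in every band, with 1.958 against 1.964 CpG from 45 to 50% GC and 4.47 against 4.48 from 60 to 65%. From 65 to 70% GC the order changed, with 7.95 CpG in the 270 antibody-only far peaks, 6.46 in the windows, 6.81 in the FLAG-only far peaks and 10.3 in the shared far peaks. Over all peaks, the CpG count was 0.341 of that given by the frequencies of C and G, against 0.514 for the shared far peaks, 0.667 for the antibody-only peaks near gene starts, 0.332 for the FLAG-only far peaks and 0.209 for the windows.

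**Figure D3:**
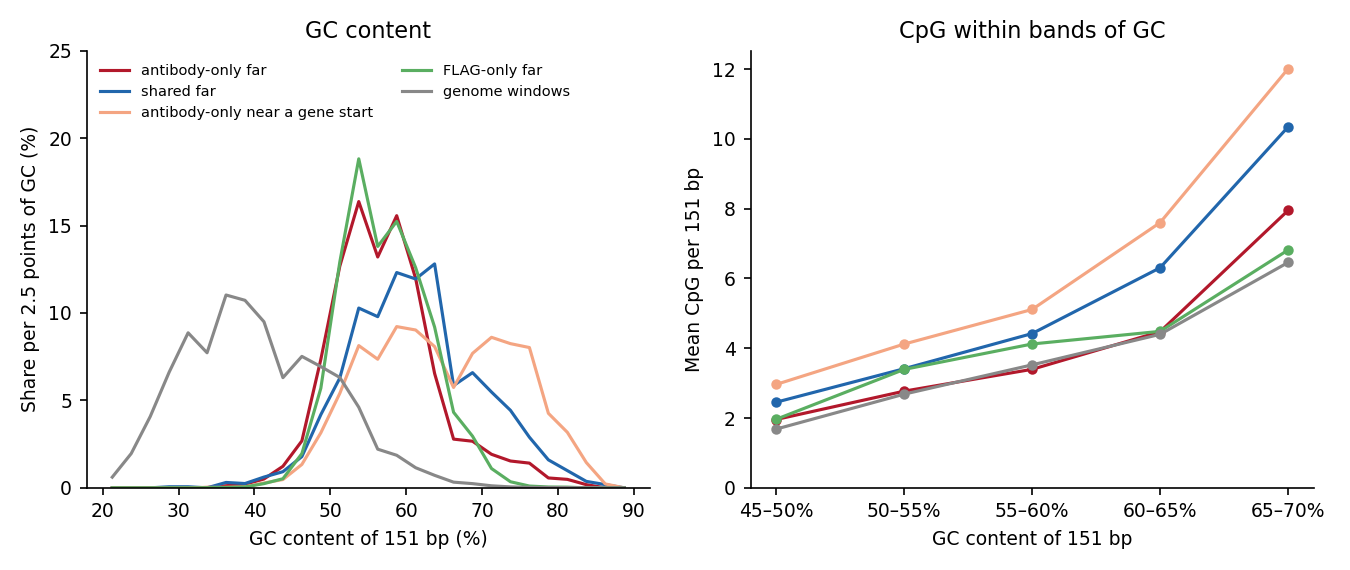
Left, distribution of the GC content of 151 bp around the midpoint (x axis, percent) as the share of each set per 2.5 points of GC (y axis, percent). Right, mean number of CpG per 151 bp (y axis) within bands of GC content (x axis), in which the antibody-only far peaks lie close to the genome windows up to 65% GC and above them, at 7.95 against 6.46, from 65 to 70%.

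Base composition differed with position inside the set. Coding exon sites were richest, with a median GC content of 62.3% and a mean of 9.32 CpG per 151 bp. UTR sites followed with 58.3% and 6.82 CpG. Intronic sites had 56.3% and 3.90 CpG, and intergenic sites 55.6% and 3.90 CpG.

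Short motifs of known factors were searched on both strands in the 151 bp around each midpoint, and no motif in the list contains another. The GC box GGGCGG, the site of Sp family factors, was in 536 antibody-only far peaks or 10.8%, against 20.8% of the shared far peaks, 32.8% of the antibody-only peaks near gene starts, 10.7% of the FLAG-only far peaks and 1.85% of the windows. The E-box CACGTG was in 3.63% and 1.34% of the windows, and the GATA motif AGATAA in 3.57% and 11.5%. Within 55 to 60% GC these contrasts with the genome shrank or turned. The GC box was then in 6.32% (5.17 to 7.70%) of the peaks and 7.38% of the windows, the E-box in 2.95% (2.19 to 3.96%) and 3.04%, and the GATA motif in 3.51% (2.67 to 4.60%) and 2.22%. At this GC content the difference in the GC box from the shared far peaks was -1.76 points (-5.24 to 1.00), that from the antibody-only peaks near gene starts -5.45 points (-8.51 to -2.72) and that from the FLAG-only far peaks -3.46 points (-4.76 to -1.97). Of the other motifs, AP-1 (TGANTCA) was in 4.02% of the peaks and 4.78% of the windows, and TEAD (GGAATG) in 7.995% and 8.07%. These 2 motifs were not compared at matched GC content. The shared far peaks had 4.25% and 8.13%. The FLAG-only far peaks, of similar GC content, had 2.94% and 6.68%. The differences from the latter were 1.08 points (0.532 to 1.68) for AP-1 and 1.32 points (0.550 to 2.15) for TEAD. The longer motifs were rare, with ETS (CCGGAAGT) in 9 peaks, NRF1 (GCGCATGCG) in 8, CTCF in 7, CREB (TGACGTCA) in 6 and YY1 (AAGATGGCG) in 5 of the 4953. A match is a description of the sequence and not evidence of a bound factor.

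In most antibody-only far peaks the median stretch of 31 bp occurred once in the genome. The genome file was not masked, so repeats were measured by how often the 31-mers of a peak occur in the genome on either strand. Only exact matches count, so repeat copies that differ in sequence can go uncounted. A single-copy peak, in this sense, can still lie in a repeat. The median 31-mer had more than 1 copy in 635 peaks or 12.8% (11.9 to 13.8%), against 13.6% of 78873 sampled genome windows. The shared far peaks had 6.84% and the FLAG-only far peaks 27.8%, so the antibody-only far peaks exceeded the former by 5.99 points (4.38 to 7.47) and differed from the latter by -15.0 points (-16.0 to -13.9). The contrast with the FLAG list held at high copy number. More than 10 copies were found for 362 antibody-only far peaks (7.31%) and for 19.7% of the FLAG-only far peaks, and more than 1000 copies for 31 (0.626%) and 3.63%. Reads from repeats can be placed at several loci, and how the authors treated them in either list is not given in the sources used here. The labels name different genome builds for the 2 ChIPs, hs37d5, which adds decoy sequence, among those of the ZMYND8 samples and hg19 alone for FLAG-ZMYND8, and the part of this difference in the result was not tested. Inside the set, the share with more than 1 copy was 1.40% for coding exon sites and 14.3% for intronic ones.

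Narrow peaks at the minimum width made up most of the set. A width of exactly 151 bp was found for 3896 peaks or 78.7% (77.5 to 79.8%), against 42.2% of the shared far peaks and 56.9% of the antibody-only peaks near gene starts. In the FLAG-only far set 66.8% were at that list's own minimum of 167 bp. The remaining 1057 antibody-only far peaks had a median width of 204 bp, from 188 to 953 bp. A wider peak has more bases with which to overlap, so the contrast with the shared set carries the selection. Peaks wider than the minimum had a median GC content of 57.6%, against 56.3%, and lay nearer to a FLAG-ZMYND8 peak, with a median gap of 2333 bp against 6593 bp.

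The absence of an overlap did not always mean a distant FLAG-ZMYND8 peak. The median gap to the nearest one was 5472 bp, with quartiles of 1178 and 21503 bp. Within 500 bp lay a FLAG-ZMYND8 peak for 751 antibody-only far peaks (15.2%), within 5000 bp for 2405 (48.6%) and within 50000 bp for 4285 (86.5%), and 2 peaks touched one. The FLAG-ZMYND8 list is the longer one, with 63690 peaks. These distances were not measured from the genome windows, so there is no genome level against which to read the shares. Whether the antibody-only far peaks lie nearer to FLAG-ZMYND8 peaks than other sequence does was not tested. For the antibody-only peaks near gene starts the shares were higher, at 34.6% within 500 bp, 69.6% within 5000 bp and 91.8% within 50000 bp. Since the overlap chose the peaks, these values are a description.

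Peaks close to a FLAG-ZMYND8 peak and distant ones differed in composition. The 751 peaks with a gap under 500 bp had a median GC content of 58.9%, 6.25 CpG per 151 bp, 15.0% in exons and 63.6% at the minimum width. The 668 peaks with a gap of 50 kb or more had 56.3%, 3.49 CpG, 6.74% in exons and 87.4% at the minimum width, and 58.8% of them were inside a gene against 71.2% of the near ones.

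The name of each ZMYND8 peak ends in a number whose meaning is not stated, and the antibody-only far peaks were unevenly spread over it. Of the 4953 peaks, 6.97% were in the quintile of the ZMYND8 list with the lowest numbers and 28.4% in that with the highest. Along the quintiles the median GC content went from 62.9% through 59.6%, 57.6% and 55.6% to 54.4%, and the share at the minimum width from 52.8% to 84.8%. The share with a multicopy median 31-mer went from 5.80% to 16.3%. These changes ran in 1 direction through all 5 quintiles for each of the 3 measures.

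**Figure D4:**
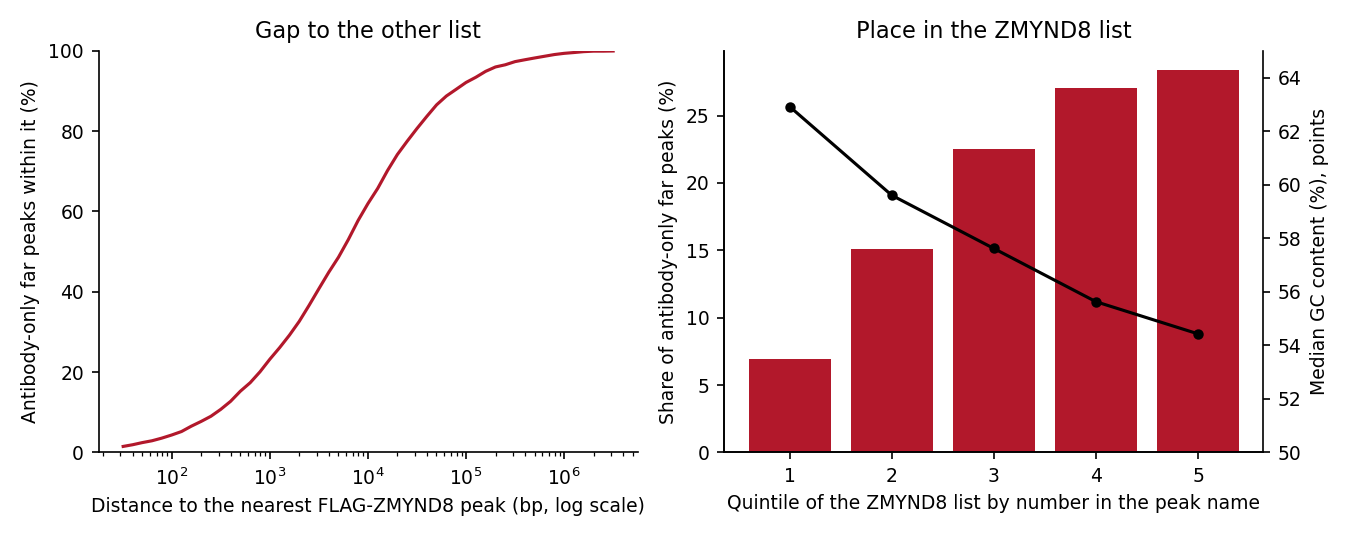
Left, share of antibody-only far peaks (y axis, percent) with a FLAG-ZMYND8 peak within a given distance (x axis, bp, log scale), which reaches 48.6% at 5000 bp. Right, share of the antibody-only far peaks in each quintile of the ZMYND8 list by the number in the peak name (bars, left axis) and their median GC content (points, right axis, which starts at 50%), which goes from 62.9% to 54.4%.

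Inside genes, the antibody-only far peaks were thinly spread. At least 1 was in the body of 2242 of 19229 protein-coding genes on chromosomes 1 to 22, which is 11.7% and is the level against which the families below are read. Of these genes, 1721 held 1 peak, 351 held 2, 93 held 3, 45 held 4 and 32 held 5 or more. Host genes were long, with a median length of 83.8 kb against 27.6 kb for all protein-coding genes. Of genes of 100 kb or more 28.3% held a peak, and of genes under 20 kb 3.26%. The 3 kb beside a gene start, which the rule leaves out, are a larger part of a short gene. In genes of 50 kb or more, 5 successive equal parts of the gene held 22.2%, 19.6%, 19.9%, 17.4% and 20.9% of 2234 placements. The rule takes out the sequence within 3 kb of each gene's own start, so the parts are unlike in usable sequence. Whether the sites gather at one end can therefore not be read from these shares.

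Most host genes also held FLAG-ZMYND8 peaks at other positions. Any FLAG-ZMYND8 peak lay in 2010 of the 2242 host genes (89.7%) and in 66.3% of all protein-coding genes. The contrast was smaller among genes of 100 kb or more, where the shares were 92.3% and 83.2%. A shared far peak lay in 356 of the 2242 host genes. The share over all protein-coding genes was not computed, so there is no level against which to read this count.

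The gene with most antibody-only far peaks was GMDS on chromosome 6, which encodes the first enzyme of GDP-fucose synthesis. Its 622 kb held 10 of them, all intronic, beside 6 shared far peaks and 81 FLAG-ZMYND8 peaks. In order along the chromosome their GC contents were 47.0%, 54.97%, 46.4%, 53.6%, 59.5%, 49.0%, 59.5%, 51.8%, 45.03% and 52.3%, and their gaps to a FLAG-ZMYND8 peak were 468, 1613, 844, 812, 696, 69, 316, 14328, 2704 and 512 bp. Of the 10, 7 therefore had a FLAG-ZMYND8 peak within 1000 bp, against 23.2% of all antibody-only far peaks. How far the 81 FLAG-ZMYND8 peaks of this gene account for that count was not tested. A GC content below the median of the set, which was 56.3%, was found for 8 of the 10.

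The other genes named by the same count code for transcriptional regulators, signalling proteins and scaffolds. CAMTA1, a calmodulin-binding transcription factor, held 9 over 984 kb, with gaps of 727 to 28033 bp. SIPA1L2, of the Rap GTPase-activating family, held 8 of low GC content, from 45.8% to 53.0%. GSE1, a coiled-coil protein found with CoREST corepressor complexes, held 8 of high GC content, from 60.3% to 69.5%, beside 134 FLAG-ZMYND8 peaks. The peaks of GSE1 and SIPA1L2 thus did not overlap in GC content. The 10 Mb stretches around these genes differed likewise. The median GC content of the antibody-only far peaks was 62.3% around GSE1 and 50.3% around SIPA1L2. For the FLAG-only far peaks it was 61.1% and 52.7%. KAZN, which encodes a protein of cell junctions, held 8 over 1225 kb and had 16 FLAG-ZMYND8 peaks. RAI1, a chromatin-associated regulator whose loss causes Smith-Magenis syndrome, held 7 in 130 kb, which was the highest rate of the 10 genes at 5.38 per 100 kb. CCDC88C, a regulator of Wnt signalling, held 7 in 147 kb, and PLXNA2, a semaphorin receptor, held 7 that each had a FLAG-ZMYND8 peak within 2645 bp. PRDM16, a zinc finger regulator of brown fat, and TRIO, a guanine nucleotide exchange factor, held 7 each. All 7 of TRIO were at the minimum width, and they spanned 44.4% to 58.9% GC.

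Gene families defined by their symbols lay on either side of the 11.7% of all protein-coding genes. Of 503 ZNF genes, which encode zinc finger proteins, 46 (9.15%) held a peak, and of 359 SLC genes, which encode transporters, 45 (12.5%). Of 42 collagen genes 13 (30.95%) did, and these have a median length of 133 kb. Per Mb of gene, the rate was 2.28 for collagen genes, 2.50 for ZNF genes and 2.16 for SLC genes, close to the 2.33 of all protein-coding genes. Olfactory receptor genes had 1 host in 414, OR1F1, and a rate of 0.366 per Mb, and their rate of FLAG-only far peaks was likewise low at 0.732 against 19.3 for all genes. The protocadherin genes had 1 host in 63, PCDH1, and 0.117 per Mb, and their rate of FLAG-only far peaks was also low at 1.17 per Mb. HOX genes had 4 hosts in 39 (10.3%), HOXA3, HOXB7, HOXB9 and HOXD10, and keratin genes 3 in 55 (5.45%), KRT2, KRT8 and KRT80. These are short genes, and per Mb their rates were above that of all genes, at 10.01 for HOX and 7.47 for keratin genes, from 4 peaks in each family. Their FLAG-only far peaks were also dense, at 167.7 and 42.97 per Mb. The rule leaves out midpoints within 3 kb of a gene start. Median lengths were 2.09 kb for olfactory receptor genes, 4.22 kb for HOX genes and 7.10 kb for keratin genes. Much of the sequence of these families could therefore hold no antibody-only far peak, whereas the rates per Mb count whole genes. Their shares and rates are thus not on the same footing as those of all genes.

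The antibody-only far peaks were mostly isolated from each other. The median distance to the nearest other one was 76731 bp, and 648 (13.1%) had another within 10 kb. This was not particular to the set. Of the shared far peaks 13.8%, and of the antibody-only peaks near gene starts 14.7%, had another of their own set within 10 kb. In the FLAG-only far set, which is much larger, the share was 62.6%. No pair of antibody-only far peaks was closer than 1013 bp, and the closest pairs of the other ZMYND8 sets were similar, at 1057 and 1005 bp. From an antibody-only far peak to any other ZMYND8 peak the smallest distance was 1000 bp, while the closest FLAG-only far peaks were 332 bp apart. Whether the ZMYND8 list was made with a minimum spacing is not given in the sources used here. Of the 3866 windows of 100 kb that held any antibody-only far peak, 3035 held 1 and 5 held the highest number of 6. One of these windows, on chromosome 6 at 37.0 to 37.1 Mb, touches no protein-coding gene. The others lay over SYNJ2, which encodes an inositol phosphatase, SMAD3, a transducer of TGF-beta signals, RAI1, and the pair MRPS23, a mitochondrial ribosomal protein, and CUEDC1. Each of the 5 windows held 10 to 19 FLAG-ZMYND8 peaks. At a scale of 1 Mb, the highest number was 21, on chromosome 8 between 37 and 38 Mb, where the FLAG list had 256 peaks, and the next highest was 14.

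The widest sites lay in or near genes of different kinds. The 5 widest were of 953 bp in an intron of CYTH1, 950 bp at 26390 bp upstream of AXIN2, 943 bp at 4891 bp upstream of MECOM, 941 bp in an exon 6252 bp downstream of the TSS of ANGPTL6 and 937 bp in an intron 7959 bp downstream of that of KDM6B. AXIN2 is a Wnt pathway inhibitor, MECOM a zinc finger transcription factor, KDM6B an H3K27 demethylase, ANGPTL6 a secreted angiopoietin-like protein and CYTH1 an exchange factor for ARF GTPases. They were unalike in sequence, since the site near AXIN2 had 50.5% GC and 11 CpG and that near ANGPTL6 had 72.5% GC and 121 CpG. Their nearest FLAG-ZMYND8 peaks were 1022, 8726, 1274, 9401 and 1616 bp away.

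The density of the antibody-only far peaks followed that of the FLAG-only far peaks from chromosome to chromosome, with chromosome 21 as the exception. Per Mb of sequence far from gene starts there were 2.08 over all chromosomes, from 0.555 on chromosome 4 to 6.63 on chromosome 22, and the FLAG-only far peaks were also sparsest on chromosome 4, at 5.24, and densest on chromosome 22, at 43.9. Across the 22 chromosomes the rank correlation of both densities was 0.867, a description in which all points come from the same pair of lists and share base composition and gene density. Per 100 FLAG-only far peaks there were 14.03 antibody-only far peaks in all. On chromosome 21 there were 101 to 320, or 31.6 per 100, and the other chromosomes ran from 10.6 on chromosome 4 to 17.97 on chromosome 13. Both 10 Mb stretches of chromosome 21 with at least 50 FLAG-only far peaks were high, at 30.7 and 34.4 per 100, where the median of 205 such stretches in the genome was 13.2 and the highest 42.6. On chromosome 21 the FLAG-only far peaks had 10.4 per Mb, against a chromosome median of 15.2. The antibody-only far peaks had 3.28 per Mb there, against a chromosome median of 2.02. Antibody-only peaks near gene starts numbered 17.8 per 100 FLAG-only far peaks on chromosome 21. Both ratios divide by the same 320 peaks, so they are not independent of each other. For the peaks near gene starts only chromosome 19 had a higher ratio, at 19.5, and the others ran from 6.71 on chromosome 10 to 13.1 on chromosome 20.

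The chromosomes with relatively more antibody-only far peaks were those where these had a lower GC content. The 12 chromosomes with 14.04 or more per 100 FLAG-only far peaks (1, 5, 6, 7, 10, 12, 13, 15, 17, 19, 21 and 22) had median GC contents of 52.3% to 58.3%, and the 10 with 12.6 or fewer had 57.0% to 60.9%. On chromosome 21 the median was 52.3%, the lowest, and on chromosome 16, with 10.9 per 100, it was 60.9%, the highest. The rank correlation between the ratio and the median GC content was -0.781 over the 22 chromosomes and -0.748 without chromosome 21. The same ratio of far peaks was also set against the median GC content of the other sets on each chromosome. With that of the antibody-only peaks near gene starts the rank correlation was -0.761, with chromosome medians from 59.6% to 68.9% GC. For the shared far peaks it was -0.582, with medians from 53.2% to 64.2%. For the FLAG-only far peaks it was -0.610, with medians from 54.5% to 60%, and for the genome windows 0.111. These are descriptions over chromosomes, and no cause was tested.

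**Figure D5:**
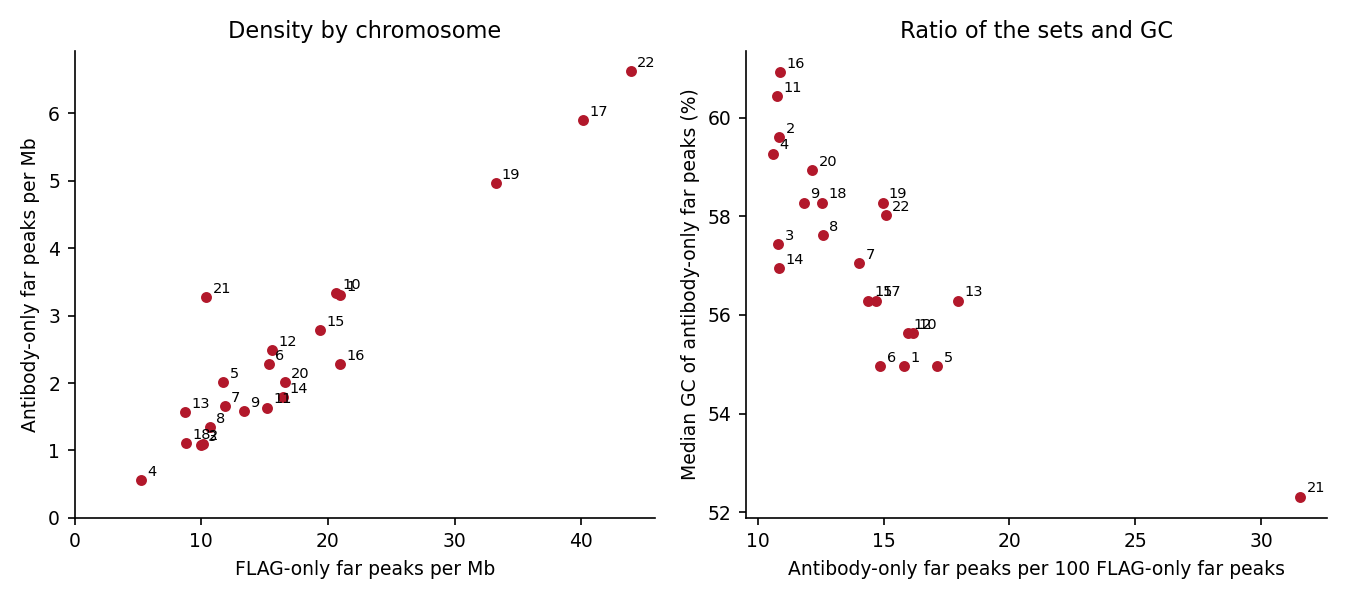
Left, antibody-only far peaks per Mb (y axis) against FLAG-only far peaks per Mb (x axis) for chromosomes 1 to 22, each a labelled point; chromosome 21 lies above the trend. Right, median GC content of the antibody-only far peaks (y axis, percent, not starting at 0) against their number per 100 FLAG-only far peaks (x axis), from 60.9% on chromosome 16 to 52.3% on chromosome 21.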

How the data were processed

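Per the submitters' processing notes, the authors used BWA and HOMER. The notes name hs37d5, GRCh37 and hg19 for the ZMYND8 ChIP and hg19 alone for the FLAG-ZMYND8 ChIP. Peak-calling settings, the handling of repeats and the way replicates were combined are not given in the sources used here. The deposited lists hold a position, a name and a score, and the score column that the authors deposited is 1 in every row, so it ranks nothing. Positions fit GRCh37. The members and gene lists were chosen with earlier results of these data known.

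Midpoints were compared with the 64449 gene starts of GENCODE release 44 on GRCh37. A midpoint was classed in the order coding exon, UTR, noncoding exon, intron, gene end (up to 1 kb downstream) and intergenic. GC content and CpG were read from the reference over the whole peak, or over 151 bp around the midpoint where sets are compared for CpG or motifs. A lower-case repeat measure had been planned, but the genome file is in capitals throughout, so 31-mers were counted in the genome on both strands, with every 200th genome window for comparison. Named genes are the 10 with most members, those of the 5 densest 100 kb windows, the 5 widest members and the 3 peaks on either side of each limit. Sequences are, per class, the site of minimum width with most CpG off chromosome 8. Some sequences that the rule named are not reported here. The GMDS sites, the comparison of GC content between chromosomes, the 10 Mb stretches and the GC content at 200 to 400 bp from midpoints were chosen after the values were seen. Functions were tested on simulated data with known classes, overlaps, motifs and intervals. Python 3.11.15, numpy 2.4.6, pandas 2.3.3, scipy 1.17.1, numba 0.67.0 and matplotlib 3.10.9 were used.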

Additional observations from a re-analysis of the deposited data

How the results depend on the processing

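No paired analysis was possible because each target has a single merged list, which also means that leaving out a replicate was not an option. The lists give no counts, so what depth limits is unknown. The gene starts, the TSS distance, the overlap, the copy number, the position classes and the GC window were varied 1 at a time, the set was split by width, and the 1000 bp limit was not varied. Of 49 values, 28 moved by less than the counting interval or, for numbers of peaks, by less than 1.5 times. The number of 4953 peaks became 3180 with a TSS distance of 10 kb and 1057 for peaks wider than the minimum. The share inside a gene, 69.2%, became 61.5% with the starts of all transcripts, 70.5% with a TSS distance of 1 kb and 58.7% with protein-coding genes only. The median GC content, 56.3%, became 57.6% for the wider peaks and 56.0% over 200 bp around the midpoint. The share with a multicopy median 31-mer, 12.8%, became 13.9% with all transcript starts, 14.04% without peaks that had a FLAG-ZMYND8 peak within 500 bp, 14.2% at the minimum width, 7.85% among wider peaks, 11.7% when less than 50% reciprocal overlap counted as none, and by construction 0% among single-copy peaks. The share at the minimum width, 78.7%, became 76.9% with protein-coding starts only, 77.4% at 1 kb, 79.8% at 10 kb, 81.3% without peaks near FLAG-ZMYND8, 77.4% among single-copy peaks, 73.8% with the reciprocal overlap, and by construction 100% and 0% when the set was split by width. The cause of these shifts was not tested. The planned share of lower-case bases was not run, because the genome file is not masked.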

Other observations

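Chromosome X was outside the selection. It carried 508 ZMYND8 peaks, of which 300 would have met the rest of the rule, beside 439 FLAG-only peaks of the same kind. Among the 10 Mb stretches of chromosomes 1 to 22 with at least 50 FLAG-only far peaks, the highest numbers of antibody-only far peaks per 100 FLAG-only far peaks were 42.6 on chromosome 19 between 30 and 40 Mb and 38.0 in the first 10 Mb of chromosome 5, and the lowest was 1.41 on chromosome 4 between 80 and 90 Mb. These stretches were picked out after their values were seen.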
